A study of Homo sapiens with 71 samples.

Results

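The 35 genes described here encode nuclear receptors and were chosen by symbol, as the receptors whose symbols begin with A to P, among the 31012 complete entries of the deposited expression table. All 35 had an entry. Of these, 21 were detected in control cells and were tested, and 14 were at or near 0. The table used here ends within the letter R, so the retinoid, thyroid hormone and vitamin D receptors are not analysed here.

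Nuclear receptors are transcription factors that bind DNA through zinc fingers and carry a pocket for a small lipid-soluble ligand. Binding of a hormone, bile acid, fatty acid or foreign compound changes which co-activators or co-repressors the receptor holds, and thereby the transcription of its target genes. In liver, PXR (gene NR1I2) and CAR (NR1I3) respond to drugs and pollutants, FXR (NR1H4) to bile acids, LXR (NR1H2 and NR1H3) to oxysterols and the PPARs to fatty acids, while HNF4A, LRH-1 (NR5A2) and the COUP-TF factors (NR2F1 and NR2F2) act without a classical hormone. A receptor can be active without any change in its own mRNA, so the values below are levels of receptor transcripts and not of receptor activity.

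The cells were HepG2, an established human hepatoma line. Their RNA was measured by TempO-Seq, which ligates pairs of gene-specific probes on the RNA and counts the ligated products. The water came from 16 tributary sites of the Great Lakes, named here by their codes: BRWI, CRMI, CROH, FRWI, GRMI, GRNY, IHIN, JRMI, LRMN, MAWI, MIWI, MROH, ORNY, RRMI, SRMI and VROH. After 72 h of preculture, dishes were kept for 48 h in medium of which 75% was site water passed through a 0.7 µm filter, or purified water passed through a 0.1 µm filter as the control. Each site had 4 dishes, except MIWI with 3, and 8 controls were analysed, which makes 71 libraries. All dishes were seeded from 2 flasks pooled into 1 suspension, so the spread between dishes does not include differences between cell batches, and filter size and dissolved matter of the water cannot be told apart.

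Control libraries held 8183185 to 14519869 counts and site libraries 2912835 to 9893173, apart from VROH 2, which held 8840. VROH 2, CRMI 1 and SRMI 3 stood apart from the other libraries of their sites: the SD of the log2 difference over 3362 features was 2.7, 1.86 and 1.19. VROH 2 held counts of only 5 of the 35 receptors (1 of NR1H4, 3 of NR1D1, 2 of HNF4G, 1 of NR2F1 and 1 of NR2E1), so its receptor levels carry almost no information. Calls of receptors and their ranges over the sites are therefore given with all libraries and without these 3. All 19 markers of hepatocytes and HepG2 exceeded 10 CPM, the counts scaled to a common library total, in the controls. None of the 7 endothelial markers and 1 of the 8 fibroblast and stellate markers did so, while 4 of 9 immune markers (summed 1693 to 2286 CPM in controls, 983 to 3565 CPM as site means) and 2 of 5 cholangiocyte markers did. Their part in the results below was not tested.

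A receptor was called detected where at least 6 of the 8 controls held 10 or more counts. The 21 detected receptors were also the 21 that passed the filter on low counts, which 55.9% of the features with any count did. The levels are CPM after TMM scaling, a factor that evens out library composition, and they cannot be ranked between genes because the number and efficiency of the probes per gene are not given. Besides the overlaps named with single genes below, NR1H3, NR1I2, NR2C2, NR2F6 and NR4A1 share exon bases with a neighbouring gene in GENCODE 29, and their values are uncertain to that extent because probe positions are not given.

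The lipid, bile acid and xenobiotic sensors were detected in 7 of 8 cases. Among them PPARG stood at 284 ± 32.5 CPM (SD, n = 8 controls), NR1H4 at 110 ± 11.6, PPARA at 104 ± 12.1, NR1H2 at 54 ± 6.92, NR1H3 at 19.4 ± 1.82, NR1I3 at 14 ± 1.23 and NR1I2 at 5.28 ± 0.929 CPM. PPARD, the third PPAR, had 1 to 6 counts per control. Of the HNF4 and NR2 receptors 7 of 9 were detected: NR2F1 at 69.8 ± 5.13, NR2F2 at 29 ± 3.09, HNF4A at 28.1 ± 5.04, NR2F6 at 18.4 ± 1.5, NR2C1 at 8.51 ± 1.41, NR2C2 at 2.03 ± 0.518 and HNF4G at 1.71 ± 0.585 CPM. The eye and brain receptors of that family were not among them, NR2E3 being at 0 in every library and NR2E1 having 1 count over all 71 libraries. All 3 receptors of the NR5 and NR6 group were detected, with NR6A1 at 297 ± 27.5, NR5A1 at 282 ± 20.8 and NR5A2 at 25.7 ± 4.05 CPM. NR5A1 is known above all from the adrenal gland and gonads, and NR6A1 from germ cells and early embryos.

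Both repressors of the circadian clock were detected, NR1D2 (REV-ERB beta) at 35.3 ± 3.18 and NR1D1 (REV-ERB alpha) at 8.32 ± 1.65 CPM. Of the 3 immediate early receptors NR4A1 was detected at 2.14 ± 1.03 CPM, on 8 to 40 counts per control. Its relatives were lower, NR4A3 with 1 to 4 counts per control and NR4A2 with none in the controls and 6 counts over all site libraries. Of the 5 steroid receptors only the glucocorticoid receptor NR3C1 was detected, at 42.2 ± 5.86 CPM. The oestrogen receptor ESR1 had 1 to 4 counts per control, the mineralocorticoid receptor NR3C2 had 0 to 5, and the progesterone receptor PGR had 1 count over the 8 controls. ESR2 had none in the controls and 2 counts at sites.

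None of the 3 oestrogen-related receptors was detected: ESRRA and ESRRG were at 0 in every library and ESRRB had 4 counts over the 8 controls. A count of 0 over the 80595578 control counts allows a level of up to 0.0372 CPM, and a 0 says only that no probe product was counted. Of the 2 receptors that lack a DNA-binding domain, NR0B1 (DAX1) had 1 count in all and NR0B2 (SHP, a target of FXR that represses bile acid synthesis) had 302 counts over the 71 libraries. NR0B2 stood at 0.412 ± 0.268 CPM in controls, and its site means ran from 0.302 CPM at MAWI to 1 CPM at GRNY. With 1 to 14 counts per control NR0B2 was not tested.

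**Figure D1:**
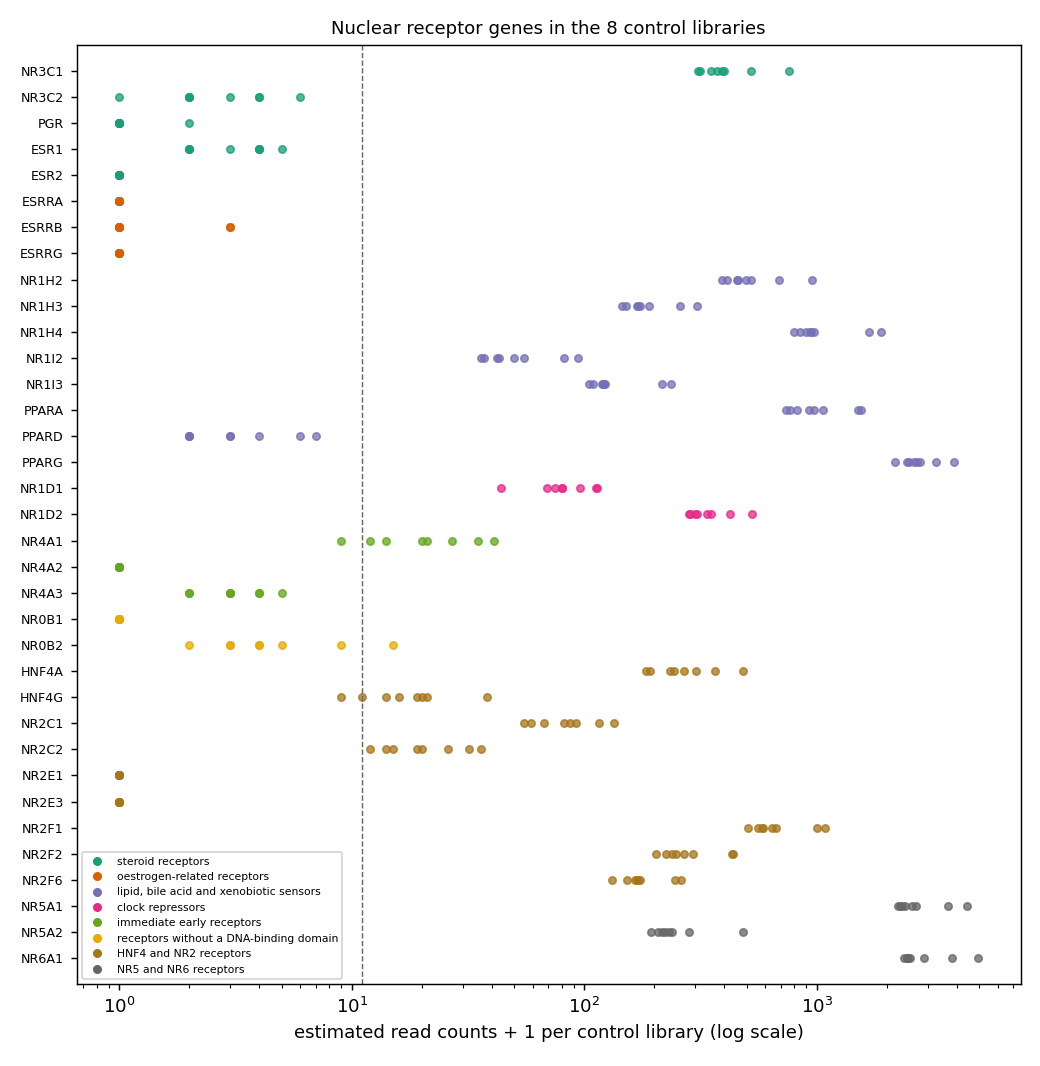
Estimated counts of the 35 nuclear receptor genes in the 8 control libraries, on a log axis of counts + 1, 1 point per library and 1 colour per role. The dashed line marks 10 counts; 21 genes had at least 6 of the 8 points at or beyond it.

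Averaged over the 16 sites, no receptor passed the test against the controls. With edgeR's quasi-likelihood test 0 of 21 receptors had a Benjamini-Hochberg adjusted p under 0.05 with all libraries, where 0.0576% of the 6947 features tested were called, and 0 of 21 without the 3 libraries, where 0.174% were called. DESeq2 also called 0. At an unadjusted p under 0.05 there were 2 receptors with all libraries and 3 without the 3. The lowest was NR1I3, whose mean over the sites was 0.34 ± 0.11 (SE) below the controls on the log2 scale (edgeR adjusted p = 0.91), and whose value was lower at 14 of 16 sites (13 without the 3 libraries). NR2F1 was 0.19 ± 0.09 higher (edgeR adjusted p = 1), and NR2F6, which represses other receptors' targets, was 0.15 ± 0.11 higher. The median log2 difference of the 21 receptors was 0.01, with 11 higher and 10 lower, beside −0.02 over all features. All members of the sensor group other than NR1I3 lay between −0.12 (PPARA) and 0.01 (NR1H4).

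At single sites, calls fell on 6 of the 21 receptors with all libraries and on 10 without the 3 libraries. Of the 336 pairs of 21 receptors and 16 sites, 10 (2.98%) were called with all libraries, 7 higher and 3 lower than the controls, beside 0.883% of all feature and site pairs. They belonged to 6 receptors and 5 sites: NR5A2 at CROH, LRMN and RRMI, NR2F1 at BRWI, CROH and LRMN, NR4A1 at CROH, NR1D1 at CRMI, NR1H4 at LRMN and NR1I3 at RRMI. Without the 3 libraries 36 pairs (10.7%) were called, 24 higher and 12 lower, in 10 receptors and at 10 sites, beside 4.09% of all pairs. Of the 10 pairs 9 were among these 36, and NR1D1 at CRMI was not. The share of all features called with all libraries was 0.144% at BRWI, 3.74% at CRMI, 2.14% at CROH, 5.01% at LRMN and 0.849% at RRMI. All site comparisons share the same 8 controls and are therefore not independent of each other. In bulk RNA, a change in the share of cells that express a gene and a change in RNA per cell cannot be told apart.

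**Figure D2:**
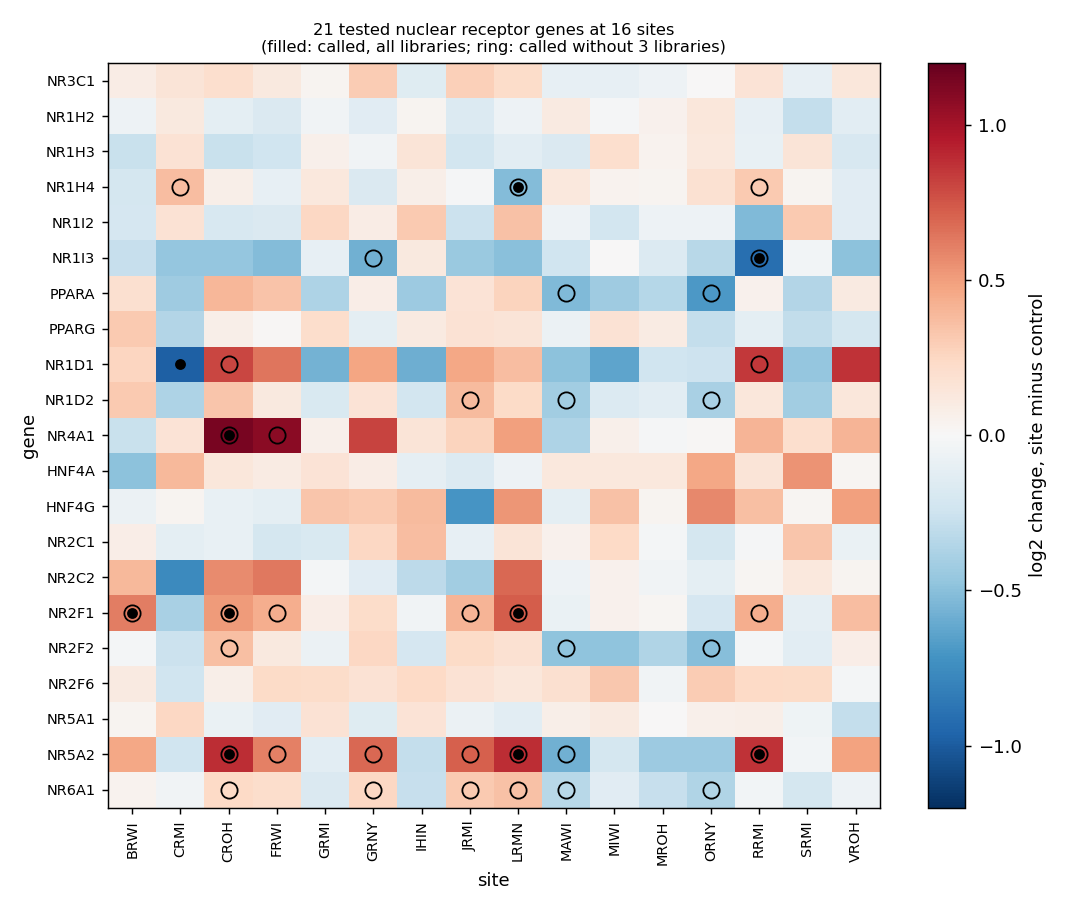
Difference in log2 expression, site minus control, of the 21 tested receptors (rows) at the 16 sites (columns), fitted with all libraries; red is higher and blue is lower than in the controls. Filled dots mark the 10 pairs called with all libraries and rings the 36 called without VROH 2, CRMI 1 and SRMI 3.

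Among the sensors, the bile acid receptor FXR fell at LRMN and the xenobiotic receptor CAR fell at RRMI. FXR is encoded by NR1H4 (ENSG00000012504.14, chr12:100473708-100564413, plus strand, GRCh38, GENCODE 29). It was 76.3, 68.7, 81.3 and 78.9 CPM in the LRMN libraries, against 91.8 CPM in the lowest, 109 in the median and 129 in the highest control. All 4 LRMN libraries lay below all controls. NR1H4 fell by 0.52 on the log2 scale there (SE 0.13, edgeR adjusted p = 0.0101, lower than the control mean in 4 of 4 libraries), and by the same 0.52 without the 3 libraries (adjusted p = 3.22e-05). The call at LRMN rested on LRMN 2 with all libraries, since without it the difference was −0.48 with an adjusted p of 0.0711. In the other direction NR1H4 was 161, 134, 148 and 122 CPM at CRMI and 141, 132, 151 and 120 CPM at RRMI, in both cases overlapping the controls. These differences of 0.30 each were called without the 3 libraries (edgeR adjusted p = 0.0402 at CRMI and 0.0364 at RRMI, where 8.01% and 2.86% of all features were called). With all libraries the CRMI difference was 0.37 with an edgeR adjusted p of 0.0804, while DESeq2 called it.

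CAR is encoded by NR1I3 (ENSG00000143257.11, chr1:161229666-161238302, minus strand), which shares exon bases with TOMM40L on the opposite strand. NR1I3 was 10, 6.28, 8.67 and 4.86 CPM at RRMI against 12.7, 13.9 and 16.4 CPM in the lowest, median and highest control. All 4 RRMI libraries lay below all controls. It fell by 0.90 on the log2 scale (SE 0.20, edgeR adjusted p = 0.00617), and without the 3 libraries by 0.90 as well (adjusted p = 0.00173). With all libraries the call was lost without RRMI 2 (−0.82, adjusted p = 0.0738) and without RRMI 4 (−0.75, adjusted p = 0.121). At GRNY the libraries held 13.9, 6.65, 8.78 and 7.73 CPM, so that 1 of the 4 lay within the control range. The GRNY difference was −0.58 (adjusted p = 0.215) with all libraries and −0.57 without the 3 (adjusted p = 0.042, with 9.17% of all features called). All NR1I3 libraries at CRMI (difference −0.46), FRWI (−0.52) and LRMN also lay below all controls. NR1I3 was called at none of these sites with all libraries or without the 3. Fits of each site with the controls alone added calls of NR1I3 at CROH, FRWI and LRMN. PXR, the other xenobiotic receptor (NR1I2), ran from −0.53 at RRMI to 0.35 at LRMN (−0.54 to 0.35 without the 3 libraries) and was called at no site in either fit.

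PPARA, the fatty acid receptor that drives fat oxidation in liver, was called at no site with all libraries. Low levels stood at ORNY, with 59.2, 63.5, 52.1 and 82.9 CPM, and at MAWI, with 59.2, 89.1, 62.5 and 76.3 CPM, against 85, 105 and 122 CPM in the lowest, median and highest control. All ORNY libraries lay below all controls, and 1 MAWI library reached into their range. PPARA, with the 3 libraries left out, fell at ORNY by 0.67 on the log2 scale (SE 0.14, edgeR adjusted p = 0.00292) and at MAWI by 0.52 (SE 0.14, adjusted p = 0.0244), where 4.09% and 4.71% of all features were called. With all libraries the values were −0.69 (adjusted p = 0.108) and −0.53 (adjusted p = 0.24). SRMI held 66.1, 60.8, 115 and 82.6 CPM, and without SRMI 3 (115 CPM) its mean of 69.8 CPM lay below the 71.8 CPM of MAWI. The SRMI difference was −0.35 with all libraries and −0.56 without the 3 (edgeR adjusted p = 0.0533). PPARA (ENSG00000186951.16) lies at chr22:46150521-46243756 on the plus strand. None of the remaining sensors was called at a site in either fit. NR1H2 ran from −0.29 at SRMI to 0.14 at ORNY with all libraries, and from −0.17 at FRWI to 0.15 at ORNY without the 3; SRMI 3 held 7.24 CPM beside a mean of 56.3 in the rest of its site. PPARG ran from −0.35 at CRMI to 0.31 at BRWI, and from −0.28 at ORNY to 0.32 at BRWI without the 3. Its low end with all libraries rested on CRMI 1, at 81 CPM beside a mean of 270. NR1H3 ran from −0.27 at CROH to 0.20 at MIWI, and from −0.29 to 0.21 at the same sites without the 3.

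**Figure D3:**
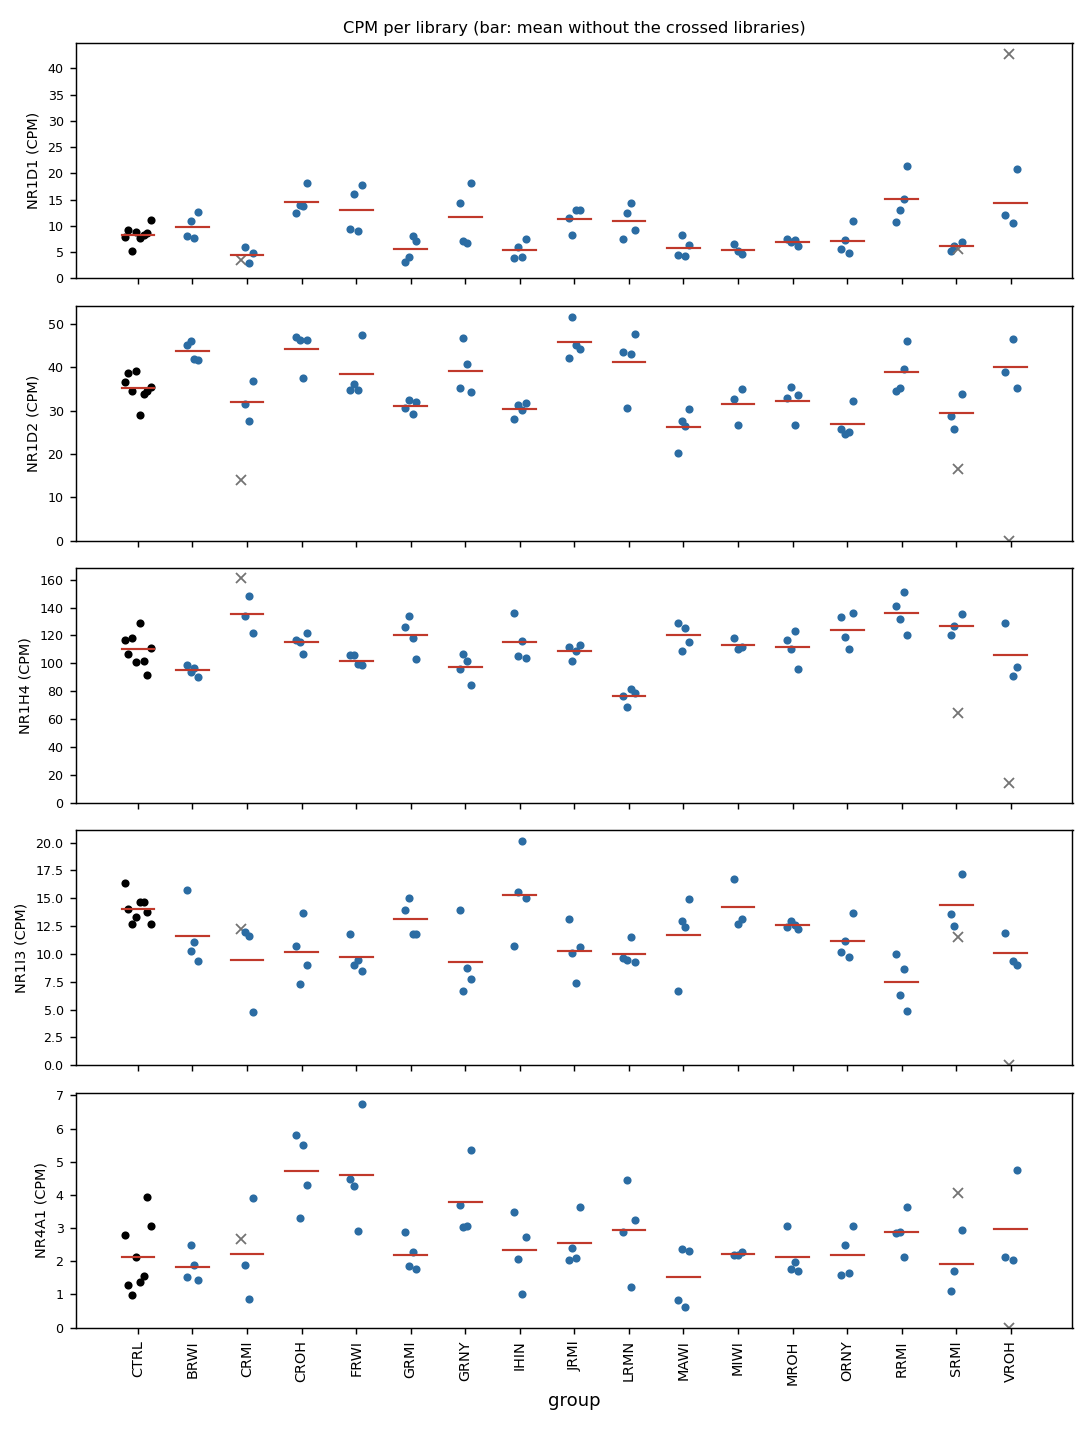
CPM per library of NR1D1, NR1D2, NR1H4, NR1I3 and NR4A1 in the controls (black) and at the 16 sites (blue), with the mean of each group as a red bar; grey crosses are VROH 2, CRMI 1 and SRMI 3, which the bars leave out. The 4 LRMN points of NR1H4 (68.7 to 81.3 CPM) and the 4 RRMI points of NR1I3 (4.86 to 10 CPM) lie below all control points.

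Of the clock repressors NR1D1 fell at CRMI and NR1D2 was called at no site with all libraries. NR1D1 (ENSG00000126368.5, chr17:40092787-40100725, minus strand) shares exon bases with THRA on the opposite strand. It was 3.49, 5.98, 2.89 and 4.75 CPM at CRMI against 5.26, 8.38 and 11.1 CPM in the lowest, median and highest control, and 1 CRMI library lay within the control range. NR1D1 fell at CRMI by 0.98 on the log2 scale (SE 0.29, edgeR adjusted p = 0.0398). Without the 3 libraries the fall was 0.88 with an adjusted p of 0.0878, and without CRMI 1 alone the difference was −0.86 (adjusted p = 0.159). At the high end NR1D1 was 12.4, 13.9, 13.7 and 18.1 CPM at CROH, all above the controls, and 10.7, 13.1, 15.2 and 21.5 CPM at RRMI, of which 1 lay within the control range. These differences were not called with all libraries in 1 model. Without the 3 libraries they were called, with 0.78 at CROH (edgeR adjusted p = 0.0235, 10.3% of all features called) and 0.84 at RRMI (adjusted p = 0.0268). Fits of each site with the controls alone called both as well. At VROH its difference of 0.87 with all libraries included the 3 counts in VROH 2, which scale to 42.8 CPM.

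NR1D2 (ENSG00000174738.12, chr3:23945260-23980618, plus strand) was 42.1, 51.7, 45.2 and 44.3 CPM at JRMI, above the highest control of 39.3 CPM. At MAWI it was 20.2, 27.7, 26.5 and 30.3 CPM and at ORNY 25.7, 24.7, 25.2 and 32.2 CPM, against a lowest control of 29.1 CPM and a median of 35.1. At both of these sites 3 of the 4 libraries lay below all controls. NR1D2, with the 3 libraries left out, rose by 0.38 at JRMI (SE 0.11, edgeR adjusted p = 0.0423, 2.91% of all features called) and fell by 0.41 at MAWI (SE 0.12, adjusted p = 0.0279) and by 0.38 at ORNY (SE 0.11, adjusted p = 0.0436). None of the 3 was called with all libraries.

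NR4A1 (NUR77), which growth factors and stress induce within minutes to hours, rose at CROH. NR4A1 (ENSG00000123358.19, chr12:52022832-52059507, plus strand) was 5.8, 3.29, 5.51 and 4.31 CPM there, against 0.978, 1.86 and 3.93 CPM in the lowest, median and highest control. Of the 4 CROH libraries 3 lay above all controls, and the counts behind them were 31, 18, 39 and 20. NR4A1 rose by 1.14 on the log2 scale (SE 0.30, edgeR adjusted p = 0.0292), and by 1.13 without the 3 libraries (adjusted p = 0.0095). The call was lost with all libraries without CROH 1, CROH 3 or CROH 4, or without control 2, 3 or 5, with differences of 1.04 to 1.18 and adjusted p up to 0.152. At FRWI the libraries held 4.49, 4.26, 2.91 and 6.75 CPM, 3 of the 4 above all controls. That difference of 1.08 was called without the 3 libraries (SE 0.30, edgeR adjusted p = 0.0369, 2.18% of all features called) and not with all (adjusted p = 0.147).

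The HNF4 and NR2 group was led by NR2F1 (COUP-TF1), a largely repressive orphan receptor, which rose at BRWI, CROH and LRMN. NR2F1 (ENSG00000175745.12, chr5:93583224-93594615, plus strand) shares exon bases with the antisense gene NR2F1-AS1, and the strand handling of the probes is not given. It was 124, 113, 113 and 112 CPM at LRMN, 107, 108, 108 and 104 CPM at BRWI and 105, 98.5, 95.8 and 97.7 CPM at CROH, against 60.9, 70.7 and 76.6 CPM in the lowest, median and highest control. All 12 of these libraries lay above all controls. NR2F1 rose by 0.73 at LRMN (SE 0.14, edgeR adjusted p = 0.000647), 0.61 at BRWI (SE 0.14, adjusted p = 0.0464) and 0.51 at CROH (SE 0.14, adjusted p = 0.0376) on the log2 scale. With the 3 libraries left out these were 0.73, 0.62 and 0.49 (adjusted p = 7.31e-06, 0.0013 and 0.00375), where 17.5%, 1.14% and 10.3% of all features were called. With all libraries the LRMN call held whichever library was left out. The BRWI call was lost in 41 of the 71 fits that left out 1 library (adjusted p up to 0.189, difference 0.59 to 0.63), and the CROH call in 17 (adjusted p up to 0.111, difference 0.48 to 0.53).

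NR2F1 was also higher at RRMI, with 97.5, 95.2, 92 and 94.6 CPM, at FRWI, with 106, 92.3, 87.4 and 92 CPM, and at JRMI, with 104, 69.2, 101 and 95.4 CPM. The RRMI and FRWI libraries lay above all controls, while JRMI 2 lay among them. These differences of 0.43, 0.44 and 0.41 were called without the 3 libraries (edgeR adjusted p = 0.0222, 0.0322 and 0.0399) and not with all libraries. At MROH, where no feature was called with all libraries, NR2F1 was 70, 72.9, 76.4 and 63.7 CPM, within the control range.

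NR2F2 (COUP-TF2; ENSG00000185551.14, chr15:96325938-96340263, plus strand) was low at ORNY, with 17.7, 19.1, 19.2 and 25.9 CPM, at MAWI, with 21.3, 24.7, 18.2 and 18.9 CPM, and at MIWI, with 21.6, 20.6 and 20.3 CPM. The controls held 23.3, 29.1 and 33.6 CPM at their lowest, median and highest, so that 3 of 4 libraries at ORNY and MAWI and all 3 at MIWI lay below all controls. At CROH NR2F2 was 35.4, 34, 44.8 and 33.8 CPM, above all controls. NR2F2, with the 3 libraries left out, fell by 0.49 at ORNY (SE 0.11, edgeR adjusted p = 0.0054) and by 0.47 at MAWI (SE 0.11, adjusted p = 0.00725) and rose by 0.34 at CROH (SE 0.11, adjusted p = 0.0297). With all libraries none of the 3 was called. The MIWI difference was −0.48 with all libraries and −0.47 without the 3 (edgeR adjusted p = 0.181), and was called in neither fit. The paralogs NR2F1 and NR2F2 thus both stood high at CROH, while at LRMN NR2F1 was called and NR2F2, at 27.2 to 37 CPM, was not; the difference between the paralogs was not tested.

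The other 5 detected members of that group were called at no site in either fit, and the ends of the range moved with the 3 libraries for 4 of them. HNF4A, a master regulator of hepatocyte genes, ran from −0.49 at BRWI to 0.54 at SRMI with all libraries. Without the 3 it ran from −0.48 at BRWI to 0.47 at ORNY, and SRMI stood at 0.31; SRMI 3 held 60.2 CPM beside a mean of 34.6 in the rest of its site. HNF4G ran from −0.71 at JRMI to 0.58 at ORNY, and from −0.96 at CRMI to 0.59 at ORNY without the 3; CRMI 1 held 3.49 CPM beside a mean of 0.875. NR2C2 ran from −0.76 at CRMI to 0.69 at LRMN, and from −0.42 at JRMI to 0.69 at LRMN without the 3, where CRMI stood at −0.39; CRMI 1 held 0.536 CPM beside 1.54. NR2F6 ran from −0.24 at CRMI to 0.32 at MIWI, and from −0.03 at MROH to 0.33 at MIWI without the 3; CRMI 1 held 3.49 CPM beside 20.1. NR2C1 ran from −0.21 at FRWI to 0.37 at IHIN, and from −0.21 to 0.36 at the same sites without the 3. HNF4G and NR2C2, the widest of these, had 8 to 37 and 11 to 35 counts per control. The glucocorticoid receptor NR3C1 ran from −0.15 at IHIN to 0.30 at GRNY (−0.15 to 0.31 without the 3 libraries) and was called at no site in either fit.

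NR5A2 (LRH-1), which drives bile acid and cholesterol genes in liver, rose at CROH, LRMN and RRMI. NR5A2 (ENSG00000116833.13, chr1:200027602-200177424, plus strand) was 42.5, 50.3, 59.7 and 37.3 CPM at CROH, 41.3, 52.9, 46 and 49.4 CPM at LRMN and 39.5, 48, 46.6 and 53.5 CPM at RRMI. The controls held 19.2 CPM at their lowest, 25.4 at their median and 33.6 at their highest. All 12 libraries of these 3 sites lay above all controls. NR5A2 rose by 0.89 at CROH (SE 0.17, edgeR adjusted p = 0.0023), 0.89 at LRMN (SE 0.17, adjusted p = 0.000622) and 0.87 at RRMI (SE 0.17, adjusted p = 0.00126) on the log2 scale. All 3 calls held in each of the 71 fits that left out 1 library, and without the 3 libraries the differences were 0.87, 0.89 and 0.86. At these 3 sites its mean was 46.9 to 47.4 CPM, so the site means differed by less than the SD within each site.

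NR5A2 was next highest at JRMI, with 49.6, 50, 37.2 and 32.7 CPM, at GRNY, with 41.4, 37.3, 35.6 and 51.5 CPM, and at FRWI, with 34.8, 43.9, 35.9 and 41.1 CPM. The GRNY and FRWI libraries lay above all controls and JRMI 4 lay just within their range. These differences of 0.72, 0.69 and 0.60 were called without the 3 libraries (edgeR adjusted p = 0.00564, 0.00548 and 0.0278) and not with all (adjusted p = 0.0553, 0.0931 and 0.161). At the low end stood MAWI with 14.9, 20, 15.9 and 17.5 CPM, where the fall of 0.57 was called without the 3 libraries (edgeR adjusted p = 0.0333). At MAWI 3 of 4 libraries lay below all controls.

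NR6A1 (GCNF; ENSG00000148200.16, chr9:124517275-124771310, minus strand) was called at no site with all libraries and at 6 sites without the 3; it was added to those given by library after its values were seen. It was 350, 409, 359 and 393 CPM at LRMN and 367, 405, 351 and 348 CPM at JRMI, above the highest control of 342 CPM. At MAWI it was 242, 234, 243 and 224 CPM, below the lowest control of 262 CPM, and at ORNY 219, 221, 207 and 275 CPM. The control median was 292 CPM. NR6A1, with the 3 libraries left out, rose by 0.35 at LRMN (SE 0.07, edgeR adjusted p = 0.000555), 0.31 at JRMI (adjusted p = 0.0102), 0.26 at GRNY (adjusted p = 0.0214) and 0.23 at CROH (adjusted p = 0.0362), and fell by 0.33 at MAWI (adjusted p = 0.00586) and 0.35 at ORNY (adjusted p = 0.00342). VROH 2 holds 0 counts of NR6A1 while the other VROH libraries hold 300 to 345 CPM. NR5A1, the third of the group, was called at no site in either fit and ran from −0.29 at VROH to 0.25 at CRMI with all libraries. VROH 2 held 0 counts of it beside 239 to 277 CPM in the other VROH libraries, and CRMI 1 held 386 CPM beside a mean of 318. Without the 3 libraries NR5A1 ran from −0.15 at GRNY to 0.18 at CRMI.

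**Figure D4:**
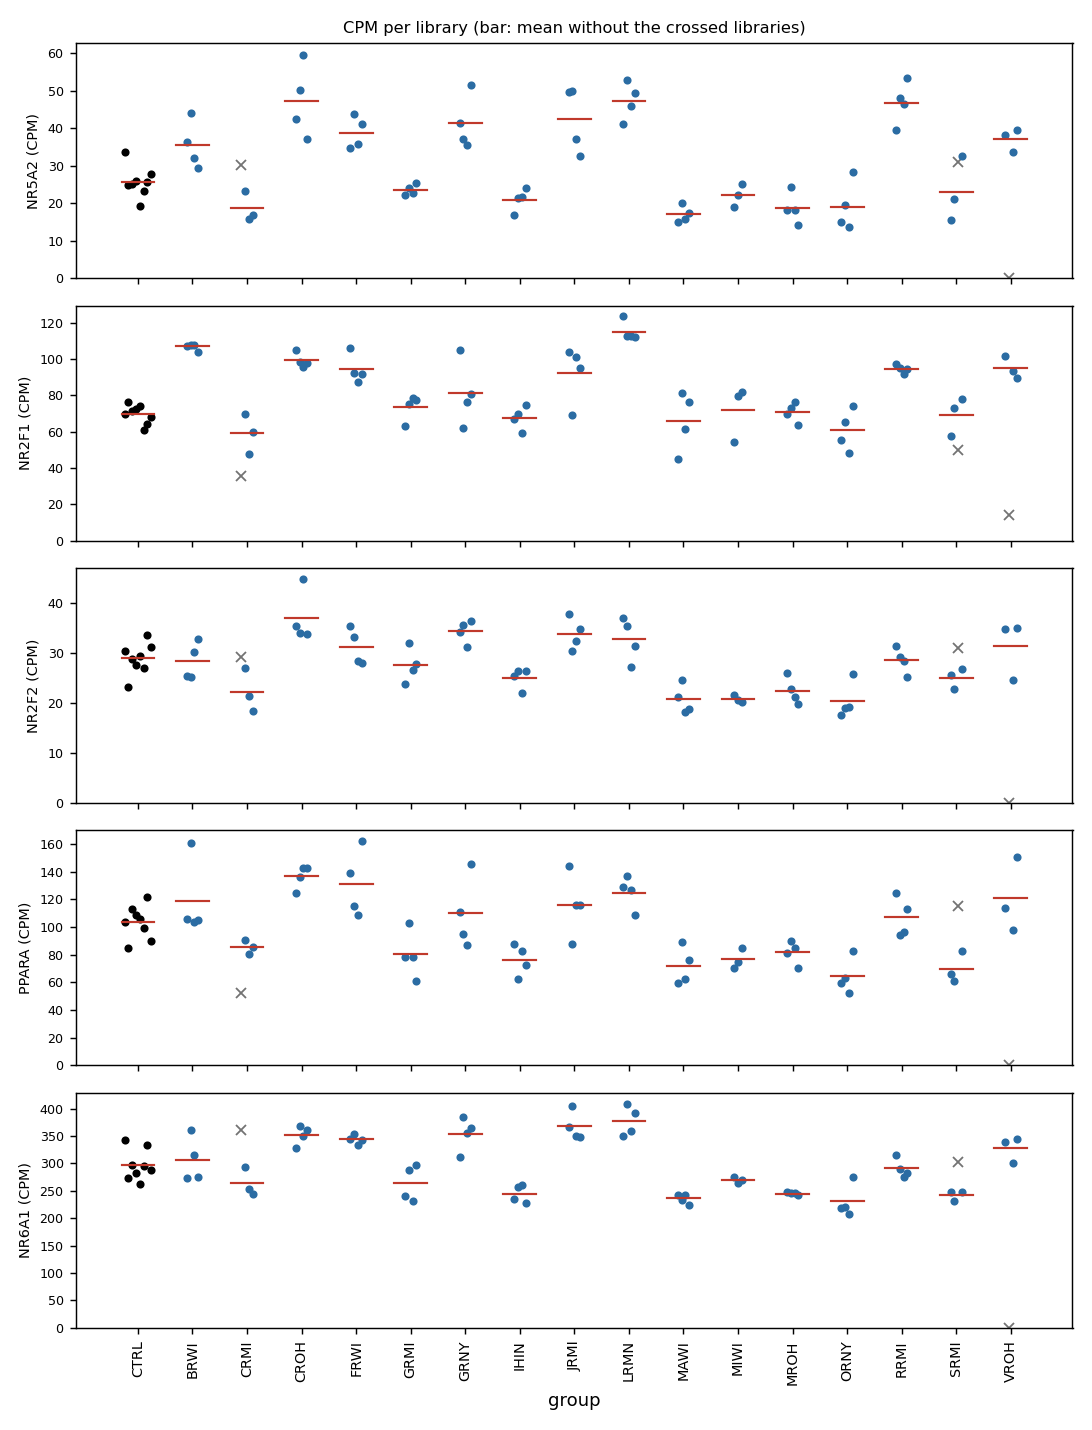
CPM per library of NR5A2, NR2F1, NR2F2, PPARA and NR6A1 in the controls (black) and at the 16 sites (blue), with the mean of each group as a red bar; grey crosses are VROH 2, CRMI 1 and SRMI 3, which the bars leave out. All points of NR5A2 at CROH, LRMN and RRMI (37.3 to 59.7 CPM) and of NR2F1 at BRWI, CROH and LRMN (95.8 to 124 CPM) lie above the controls, while NR2F2, PPARA and NR6A1 have their lowest mean at ORNY.

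To show the DNA in front of receptors that moved between sites, 300 bases around a start site (250 before it and 50 after it) are printed for 3 of them, from RefSeq on GRCh38.p14, written 5′ to 3′ on the gene's strand. Of the 35 receptors 31 had such an entry, 19 of them among the 21 tested. Capitals mark a nuclear receptor half-site (AGGTCA) in NR5A2 at chr1:200027460-200027759 (plus strand), E-boxes (CACGTG, bound by CLOCK and its relatives) in NR1D2 at chr3:23945871-23946170 (plus strand) and a cAMP response element (TGACGTCA) in NR6A1 at chr9:124771262-124771561 (minus strand). NR5A2 and NR1D2 each have 2 annotated starts, of which the one with the motif is shown.
NR5A2: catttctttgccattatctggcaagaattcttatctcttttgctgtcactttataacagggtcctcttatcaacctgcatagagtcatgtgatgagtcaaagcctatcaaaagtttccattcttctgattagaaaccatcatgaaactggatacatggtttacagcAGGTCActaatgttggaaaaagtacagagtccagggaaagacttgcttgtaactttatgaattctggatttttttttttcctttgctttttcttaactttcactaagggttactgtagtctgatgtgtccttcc
NR1D2: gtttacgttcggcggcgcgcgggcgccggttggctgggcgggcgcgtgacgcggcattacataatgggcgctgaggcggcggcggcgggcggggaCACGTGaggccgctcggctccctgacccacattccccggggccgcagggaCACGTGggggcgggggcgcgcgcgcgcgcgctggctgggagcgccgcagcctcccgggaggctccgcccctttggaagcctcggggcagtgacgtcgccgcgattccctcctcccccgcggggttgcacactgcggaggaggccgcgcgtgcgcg
NR6A1: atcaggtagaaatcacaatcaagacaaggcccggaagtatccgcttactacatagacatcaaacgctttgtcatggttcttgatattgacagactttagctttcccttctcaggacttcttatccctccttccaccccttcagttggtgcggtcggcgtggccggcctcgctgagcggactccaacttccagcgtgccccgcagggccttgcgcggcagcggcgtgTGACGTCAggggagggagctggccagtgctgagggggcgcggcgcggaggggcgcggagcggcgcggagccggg
The half-site of NR5A2 begins at −84 from the start, the E-boxes of NR1D2 at −155 and −105, and the element of NR6A1 at −24. Each motif was searched on both strands; CACGTG and the cAMP response element read the same on both. Over all 27305 genes with an entry, 16.5% held AGGTCA in at least 1 window, 8.77% CACGTG and 2.25% TGACGTCA. Of the 19 tested receptors with an entry, 4 held AGGTCA (NR1H3, NR1H4, NR5A2 and PPARG), 4 CACGTG (NR1D2, NR2C1, NR2F2 and NR5A1) and 1 TGACGTCA. None held CAAGGTCA, the longer site of NR5A receptors that contains AGGTCA, in these windows, while 1.6% of all genes did. A match describes letters and not a binding site.

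Levels of 12 of the 21 tested receptors differed between the 16 sites. In edgeR's test of whether the 16 site means are equal, in which the controls take no part, these 12 (57.1%) had an adjusted p under 0.05 with all libraries, beside 29.8% of all features. Leaving out the 3 libraries, 15 of 21 (71.4%) did, beside 49.8%. The median F was 2.51 for the receptors and 1.5 for all features, and 2.76 and 2.07 without the 3 libraries. NR5A2 had the largest F of the receptors, 13.3 (edgeR adjusted p = 2.48e-11), with site means from 17.1 CPM at MAWI to 47.4 CPM at LRMN and CROH. It was followed by NR1D1 with F of 7.72 (adjusted p = 1.52e-07), NR2F1 with 7.18, NR2F2 with 6.47, PPARA with 5.52 and NR1D2 with 4.87. NR1H4 (4.02), NR6A1 (3.32), NR4A1 (2.64), NR1I3 (2.57), NR1I2 (2.51) and NR1H3 (2.41) also passed.

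NR6A1 depended most on the libraries that stood apart: its F was 3.32 with all, 12.5 without VROH 2 and 16.2 without the 3. HNF4G (F of 2.12), NR5A1 (2.15) and PPARG (2.77) passed only without the 3 libraries, with edgeR adjusted p of 0.045, 0.0413 and 0.00801. With all libraries the calls of NR1H3, NR1I2 and NR1I3 were each lost when single libraries were left out. NR1H3 lost it without BRWI 3, CROH 1, CROH 4, MIWI 2, MIWI 3, ORNY 1 or ORNY 3 (adjusted p up to 0.075), NR1I2 without RRMI 1 or RRMI 4 (up to 0.053), and NR1I3 without RRMI 2 or RRMI 4 (up to 0.0535).

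Low and high sites were shared by some of these receptors. Of the 12 called with all libraries, 6 had their lowest site at MAWI or ORNY (PPARA, NR1D2, NR4A1, NR2F2, NR5A2 and NR6A1), and 8 had their highest at CROH, LRMN or JRMI (the same 6 with NR2F1 and NR1I2). Of the 15 called without the 3 libraries, 7 had their lowest site at MAWI or ORNY (the same 6 with PPARG), and the same 8 had their highest at CROH, LRMN or JRMI. The other 4 of the 12 did not share these sites at either end: with all libraries NR1H4 was lowest at LRMN and highest at CRMI, NR1I3 lowest at RRMI and highest at IHIN, NR1H3 lowest at CROH and highest at MIWI, and NR1D1 lowest at CRMI and highest at VROH. Without the 3 libraries NR1H4 and NR1D1 were highest at RRMI. These counts were made after the values were seen and carry no test. The share of all features with the same lowest and highest sites was not counted, so the counts do not set receptors apart from other genes.

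Known targets and partners of the receptors were examined in 10 lists, each read beside the 0.883% of all feature and site pairs called with all libraries and 4.09% without the 3. In the list of PXR and CAR targets 12 of 19 genes were tested, and 7 of 192 pairs (3.65%) were called higher and none lower; without the 3 libraries the calls were 21 higher and 7 lower (14.6%). CYP3A43 rose by 1.32 at RRMI (SE 0.22, edgeR adjusted p = 6.77e-05), from 5.68 ± 1.57 CPM in controls (n = 8) to 14.1 ± 4.09 (n = 4), and by 0.91 at CROH (adjusted p = 0.0191). CYP3A43, CYP3A5 and CYP3A7 belong to a family of similar genes that the probes may not fully separate. CYP3A5, another drug-oxidising enzyme, rose by 0.92 at RRMI (adjusted p = 0.00197) and 0.68 at LRMN (adjusted p = 0.0242). The aldo-keto reductase AKR1B10 rose by 0.84 at CROH (adjusted p = 0.0171) and 0.81 at RRMI (adjusted p = 0.0271). The seventh of these calls was CYP3A7 at RRMI, and without the 3 libraries CYP3A7 was called higher at 6 sites. RRMI was also the site where NR1I3 fell and where NR1I2 had its lowest value, −0.53, which was not called.

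The list of glucocorticoid receptor targets had 8 pairs higher and 2 lower of 208 (4.81%), and 19 and 12 without the 3 libraries (14.9%). Its calls were led by the metal-binding protein MT2A, higher at BRWI, CRMI, GRNY, LRMN and MAWI by 1.01 to 1.92 (edgeR adjusted p of at most 0.044), a gene that metals also induce. Glutamine synthetase GLUL rose by 0.64 at CROH and 0.68 at LRMN (edgeR adjusted p = 0.031 and 0.0103). The apoptosis inhibitor BIRC3 fell by 1.11 at CRMI (edgeR adjusted p = 0.0127), and without the 3 libraries its difference was −0.70 with an adjusted p of 0.062. The other pair called lower was FKBP5 at LRMN, with a difference of −0.59, a gene named after its values were seen. FKBP5 was, without the 3 libraries, called lower at BRWI, LRMN and CROH and higher at ORNY. NR3C1 itself was called at none of these sites.

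With all libraries 0.694% of the pairs of FXR targets, 0% of LXR targets and 0.595% of HNF4A targets were called, beside 0.883% of all pairs. In the list of PPAR targets 6 of 336 pairs were higher and 7 lower (3.87%) without the 3 libraries. Of 144 pairs of FXR targets 1 was lower, KNG1 (kininogen) at SRMI (−0.84, edgeR adjusted p = 0.021), whose call was lost without the 3 libraries (−0.72, adjusted p = 0.0771), and 3 were then higher and 11 lower (9.72%). No pair of the 160 of LXR targets was called with all libraries and 2 were higher without the 3 (1.25%). Of 336 pairs of HNF4A targets 2 were lower, both at CRMI: MTTP, which loads lipid onto lipoproteins, by 1.17 (edgeR adjusted p = 0.0396) and MIA2 by 0.78 (adjusted p = 0.016). With the 3 left out the values were −0.81 (adjusted p = 0.103) for MTTP and −0.62 (adjusted p = 0.0301) for MIA2, and 9 pairs were higher and 10 lower (5.65%).

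Of 96 pairs of NR4A targets 2 (2.08%) were called higher: the glycolytic enzyme ENO3 at CROH by 0.78 (edgeR adjusted p = 0.0384), where NR4A1 rose as well, and ENC1 at LRMN by 1.23 (adjusted p = 0.0103). The fit without the 3 libraries called 9 higher and 3 lower (12.5%). In the list of other circadian clock genes NPAS2, a partner of BMAL1, rose at LRMN by 0.60 (edgeR adjusted p = 0.0269) and HLF fell at CRMI by 0.51 (adjusted p = 0.0267), the only 2 of 240 pairs (0.833%). With the 3 left out, 6 pairs of that list were higher and 6 lower (5%). Of 192 pairs of oestrogen receptor targets 2 (1.04%) were higher, in cells with 1 to 4 ESR1 counts per control. They were AREG (amphiregulin) at MAWI by 1.09 (edgeR adjusted p = 0.0163) and NRIP1 at CRMI by 0.44 (adjusted p = 0.0393). With the 3 left out, 6 pairs of oestrogen receptor targets were higher and 2 lower (4.17%). NRIP1 (RIP140) also stands in the list of co-regulators, where it was the only 1 of 704 pairs called (0.142%). With the 3 left out, 13 pairs of co-regulators rose and 7 fell (2.84%). The median log2 difference at the mean of sites ranged over the 10 lists from −0.10 (FXR targets) to 0.05 (NR4A targets), beside −0.02 over all features. At the mean of sites 1 gene of the lists was called with all libraries, MT2A, which was 0.77 higher (SE 0.17, edgeR adjusted p = 0.0388, higher at 16 of 16 sites), and 0.78 higher without the 3 (adjusted p = 0.0105). CYP3A7, a PXR and CAR target named after its values were seen, was called there only without the 3 libraries (0.40, SE 0.09, edgeR adjusted p = 0.0164, higher at 15 of 16 sites) and not with all (0.37, adjusted p = 0.664).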

How the data were processed

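The authors deposited 1 table of estimated counts per gene for 71 libraries, made with Salmon on GRCh38 per the submitters' processing notes; no source used here gives its version, the probe reference or whether the values were normalized. In the median library 93.2% of the values up to 20 (91.1% in the lowest library) lay within 0.02 of whole multiples of a step between 0.9933 and 1.004, and totals differed between libraries, so the values were rounded and treated as counts. Differences were tested with edgeR 4.0.16 (R 4.3.3, limma 3.58.1): TMM scaling, a filter on low counts (minimum count 10), 1 quasi-likelihood model of 17 groups with 54 residual degrees of freedom, and Benjamini-Hochberg adjustment over all 6947 features (6916 without VROH 2, CRMI 1 and SRMI 3); features under 0.05 were called. DESeq2 1.42.0, RLE scaling, no filter, a replicate block, single-site fits and leaving out each library were alternatives. The procedure was tested on simulated data.

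All 35 receptors were eligible to be named; values by library were given for those called against the controls, or with 1 of the 6 smallest p between sites, and for each target list up to 3 called genes were named, except for a result in the list of PPAR targets that is not reported here. CYP3A7 and FKBP5 were named beyond these limits, after their values were seen. The members and lists were chosen with earlier results of these data known. The labels call the dishes biological replicates, but all came from 1 cell suspension, so p-values measure the spread between dishes. The labels' growth protocol describes 16 control dishes, of which 8 are analysed here. Library numbers for MIWI and GRMI 1 follow the table's column names. The labels name no sequencing batch. Intervals and count floors cover counting error only.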

Additional observations from a re-analysis of the deposited data

Results flagged for a closer look

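In 336 groups of 4 site libraries or 8 controls, formed by 21 receptors, 32 held 1 library set apart from the rest of its group by Dixon's test at the 95% level; chance sets apart about 1 in 20 groups. VROH 2 accounts for 10, SRMI 3 and CROH 3 for 4 each.

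In VROH 2, the library of 8840 counts, 17 of the 21 tested receptors were at 0 counts. Dixon's test set 8 of these apart at 0 CPM from the range of the other 3 VROH libraries: NR1H2 (46.8 to 56), NR1I2 (4.52 to 5.04), PPARG (269 to 287), HNF4A (27.2 to 32.5), NR2F6 (17.9 to 19.1), NR5A1 (239 to 277), NR5A2 (33.6 to 39.5) and NR6A1 (300 to 345). NR2F1 there was 14.3 CPM from 1 count, against 89.4 to 102, and HNF4G was 28.5 CPM from 2 counts, against 1.93 to 2.48. SRMI 3 was low for NR1H2 (7.24 CPM, others 51.2 to 59.4), PPARG (131, others 259 to 271) and NR5A1 (147, others 303 to 319) and high for NR1I2 (9.05, others 5.71 to 5.89). CRMI 1 was low for PPARG, at 81 CPM against 259 to 287.

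CROH 3 was high for HNF4A (50.3 CPM, others 23.7 to 25.1) and NR2F2 (44.8, others 33.8 to 35.4) and low for NR1D2 (37.6, others 46.4 to 47) and NR5A1 (213, others 279 to 287). GRNY 4 was low for NR1H2 (24.2 CPM, others 56.6 to 57.5) and high for NR2C1 (14.1, others 8.71 to 9.12). At LRMN, library 1 was high for NR2F1 (124 CPM, others 112 to 113), library 2 high for HNF4G (3.71, others 2.02 to 2.2), and library 3 high for NR1I3 (11.5, others 9.3 to 9.62) and low for NR2F6 (14.9, others 21.4 to 22.6). The remaining single cases were NR1H2 in IHIN 4 (65.3 CPM, others 51 to 52), NR1I3 in CRMI 4 (4.75, others 11.6 to 12.2), PPARA in BRWI 2 (161, others 104 to 106), NR1D2 in FRWI 4 (47.5, others 34.7 to 36.2) and ORNY 4 (32.2, others 24.7 to 25.7), NR2C1 in MROH 2 (10.2, others 7.65 to 7.84) and NR2F6 in JRMI 2 (18.5, others 21.1 to 21.5).

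The 16 site means differed from each other for 12 receptors in edgeR's test of their equality: F was 13.3 for NR5A2, 7.72 for NR1D1, 7.18 for NR2F1, 6.47 for NR2F2, 5.52 for PPARA, 4.87 for NR1D2, 4.02 for NR1H4, 3.32 for NR6A1, 2.64 for NR4A1, 2.57 for NR1I3, 2.51 for NR1I2 and 2.41 for NR1H3.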

How the results depend on the processing

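The count of receptors called at the mean of sites was 0 under every alternative run. The count called between sites, 12 with all libraries, was 10 to 15 under the other settings and 10 to 13 when single libraries were left out. The count of receptor and site pairs called at single sites, 10 with all libraries, moved most: it was 36 without VROH 2, CRMI 1 and SRMI 3, 33 with each site fitted with the controls alone, 15 with DESeq2, 11 with RLE scaling, 5 with no filter on low counts and 3 with the replicate block. Leaving out single libraries gave 7 to 22 pairs, of which 22 came without VROH 2 and 14 without CRMI 1 or SRMI 3. The common biological coefficient of variation was 0.257 with all libraries and 0.199 without the 3; the cause of each shift was not tested.

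Unless another fit is named, calls given by site above are those of the edgeR model of 17 groups. The 10 pairs were all among those called with RLE scaling, which added NR5A2 at JRMI, and with sites fitted alone. The latter added 23 pairs, among them PPARA and NR2F2 at MAWI and ORNY and NR6A1 at LRMN, MAWI and ORNY. DESeq2 lost NR1D1 at CRMI (−0.99, adjusted p = 0.0556). It added NR1H4 at CRMI, NR2F2 and PPARA at ORNY, NR5A2 at GRNY and JRMI, and NR6A1 at LRMN. The unfiltered edgeR fit lost 5 pairs: NR1D1 at CRMI, NR1H4 at LRMN, NR2F1 at BRWI and CROH, and NR4A1 at CROH, and the between-site calls of NR1H3 and NR1I2.

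Same-numbered libraries of different groups did not deviate together on average. Their deviations from group means correlated at a mean of 0.0162 over 450 pairs, against 0.0016 over 1583 pairs of other numbers. Single pairs ranged from −0.83 to 0.883 and from −0.859 to 0.892, so some libraries of different groups did deviate together, whatever their number. What these libraries share was not tested. Of 62 libraries 14 correlated best with their own number. The replicate block was fitted without MIWI and GRMI 1, whose columns carry no number that the labels give. Numbers 5 to 8 occur only among the controls, so the block fitted controls 5 to 8 each by a term of their own. The control mean under the block therefore rested on controls 1 to 4. The block kept 3 pairs (NR2F1 and NR5A2 at LRMN, NR4A1 at CROH), and the between-site calls of NR1H3 and NR1I2 were lost there too. Differences at the mean of sites that turned direction under the block were NR1I2 at 0.09, HNF4G at −0.01, NR2C1 at −0.04, NR2C2 at −0.09 and NR2F2 at 0.02; none was called in either fit. PPARG turned to 0.03 without the 3 libraries. With single libraries left out, the differences that crossed 0 ranged from −0.02 to 0.05 for NR1H4, −0.08 to 0.02 for NR1I2, −0.06 to 0.02 for PPARG, −0.04 to 0.10 for NR1D1, −0.02 to 0.08 for NR2C1 and −0.03 to 0.12 for NR2C2.

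Depth limits NR4A1, HNF4G and NR2C2, which had 8 to 40 counts per control. The 14 other receptors had too few counts to be tested; whether depth, probes or expression sets these low counts was not tested.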
